A study of Trichoderma atroviride IMI 206040 with 36 samples.

Results

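The Δblr-1 strain of the filamentous fungus Trichoderma atroviride lacks the blue-light receptor BLR-1, and the data described here are its 3 RNA-seq libraries after a pulse of blue light and its 3 libraries kept in darkness. These 6 libraries were chosen by their labels (strain Δblr-1, light or dark, replicates 1 to 3) out of 24 libraries that could be matched to samples, and 9466 of the 11863 transcripts in the table passed the filter on low counts. Mycelium of the parental strain IMI 206040 (WT) and of its mutants was grown for 36 h in darkness on cellophane over potato dextrose agar. The light group received 200 µmol m-2 of blue light and was collected 30 min later, and the dark group received no pulse. Each group had 3 biological replicates. The comparison asks what response to light remained without BLR-1, and the same contrast in WT, in Δenv-1 (lacking the photoreceptor ENVOY) and in Δblr-2 (lacking the partner of BLR-1) is given only beside it. The Δblr-1 strain came from an earlier study, so every statement rests on that one mutant. The Id of blr-1 was not given in the sources used here, and its own reads were not analysed here.

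BLR-1 and BLR-2 are the Trichoderma counterparts of the White Collar proteins of Neurospora crassa. The White Collar proteins form a complex that senses blue light through a flavin bound to one of its members and that binds the promoters of light-responsive genes. Among the known targets are photolyases and cryptochromes, which repair DNA or sense light, the clock gene frq, and ENVOY-type proteins, which dampen the response. In Trichoderma, blue light triggers the formation of conidia, the asexual spores, and this photoconidiation requires the BLR proteins.

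The Δblr-1 libraries were of uneven depth. Light libraries held between 1519260 and 20872424 estimated counts (median 4595799), and dark libraries between 5107388 and 15299639 (median 5454569). Light replicate 1 was the shallowest and light replicate 2 the deepest of the 6. A level is given as CPM, the count scaled by library size with TMM and set to a common total, and 3 counts, taken as the floor of detection, were worth 0.147 to 1.96 CPM over these libraries. Across 7789 genes the libraries correlated at r between 0.9748 and 0.9905 within light, between 0.987 and 0.9912 within darkness, and between 0.9741 and 0.9903 across light and darkness, so the condition did not set the libraries apart. A gene was called when the adjusted p of edgeR's quasi-likelihood test was at most 0.05 and the log2 fold change of light over darkness was at least 1 in size.

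Few transcripts of Δblr-1 differed between light and darkness. Of 9466 genes tested, 14 were called (0.148%), 8 with a higher level in light (0.0845%) and 6 with a lower level (0.0634%). The genes called higher encode ankyrin repeat proteins (31436 and 246325), a berberine family protein, the mitochondrial chaperone bcs1, a C2H2 zinc finger protein and 3 proteins of no known function. The genes called lower encode an alcohol dehydrogenase, an F-box protein, a gpr1 family protein, an stf2-like protein and a protein of no known function (139683). The last, gene 298191, had no description. The descriptions are those of the study's tables, and a gene absent from them is given as without a description, whatever its product. In bulk mycelium fewer cells of a type and less RNA per cell cannot be told apart.

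The smallest adjusted p belonged to gene 246325, which encodes a protein with ankyrin repeats and a SAM domain, both of which mediate contacts between proteins. It had 109, 102 and 90.5 CPM in Δblr-1 light, against 40.9, 46.1 and 48.9 CPM in Δblr-1 darkness. The light libraries lay together and well above every dark library. The log2 fold change was 1.13 ± 0.11 (SE; edgeR adjusted p = 0.000331), a 2.19-fold higher level. In WT the same gene averaged 106 ± 8.61 CPM in light and 59.6 ± 6.25 CPM in darkness (SD, n = 3 each).

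Gene 31436, the other ankyrin repeat protein, had 32.6, 34.0 and 20.8 CPM in light, against 5.85, 5.25 and 9.53 CPM in darkness. Light replicate 3 was the lowest light library and dark replicate 3 the highest dark one, and the groups did not overlap. Its level was 4.37-fold higher in light (log2 fold change 2.13 ± 0.38, SE; edgeR adjusted p = 0.0158). Gene 28950, of the berberine family of FAD-dependent oxidoreductases, had 13.0, 16.5 and 11 CPM in light, against 5.26, 3.89 and 7.41 CPM in darkness. The spacing of its libraries was like that of gene 31436, with replicate 3 giving the smallest difference (log2 fold change 1.39 ± 0.29, SE; edgeR adjusted p = 0.0332). The genes 28950 and 31436 are direct neighbours in the RefSeq gene order of Trichoderma atroviride strain P1.

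The bcs1 gene 206189 encodes an AAA ATPase that in yeast assembles respiratory complex III. It had 33.2, 56.1 and 31.1 CPM in light, against 11.9, 17.9 and 19.4 CPM in darkness. Light replicate 2 stood highest, and the lowest light library still exceeded the highest dark library (log2 fold change 1.35 ± 0.24, SE; edgeR adjusted p = 0.0158). Gene 314457, a C2H2 zinc finger protein of a class that includes many fungal transcription factors, had 32.6, 34.6 and 30.4 CPM in light, against 15, 14.0 and 19.9 CPM in darkness. Its fold change of 2.04 was the smallest among the called genes (log2 fold change 1.03 ± 0.19, SE; edgeR adjusted p = 0.0207).

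The other genes called higher have no known function. Gene 89388 had 3.91, 4.31 and 6.46 CPM in light, against 0.974, 0.907 and 0.706 CPM in darkness. This was the largest rise among the called genes, 5.63-fold, and it rested on few counts, with 6, 88 and 31 in light, against 5, 14 and 4 in darkness (log2 fold change 2.49 ± 0.44, SE; edgeR adjusted p = 0.0157). Gene 301968 had 79.5, 68.5 and 55.0 CPM in light, against 19.3, 19.1 and 30.2 CPM in darkness (log2 fold change 1.56 ± 0.22, SE; edgeR adjusted p = 0.00364). Gene 291965 had 25.4, 30.9 and 27.3 CPM in light, against 9.55, 13.4 and 13.1 CPM in darkness (log2 fold change 1.23 ± 0.19, SE; edgeR adjusted p = 0.00723). In all 3 genes every light library lay above every dark library.

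**Figure D1:**
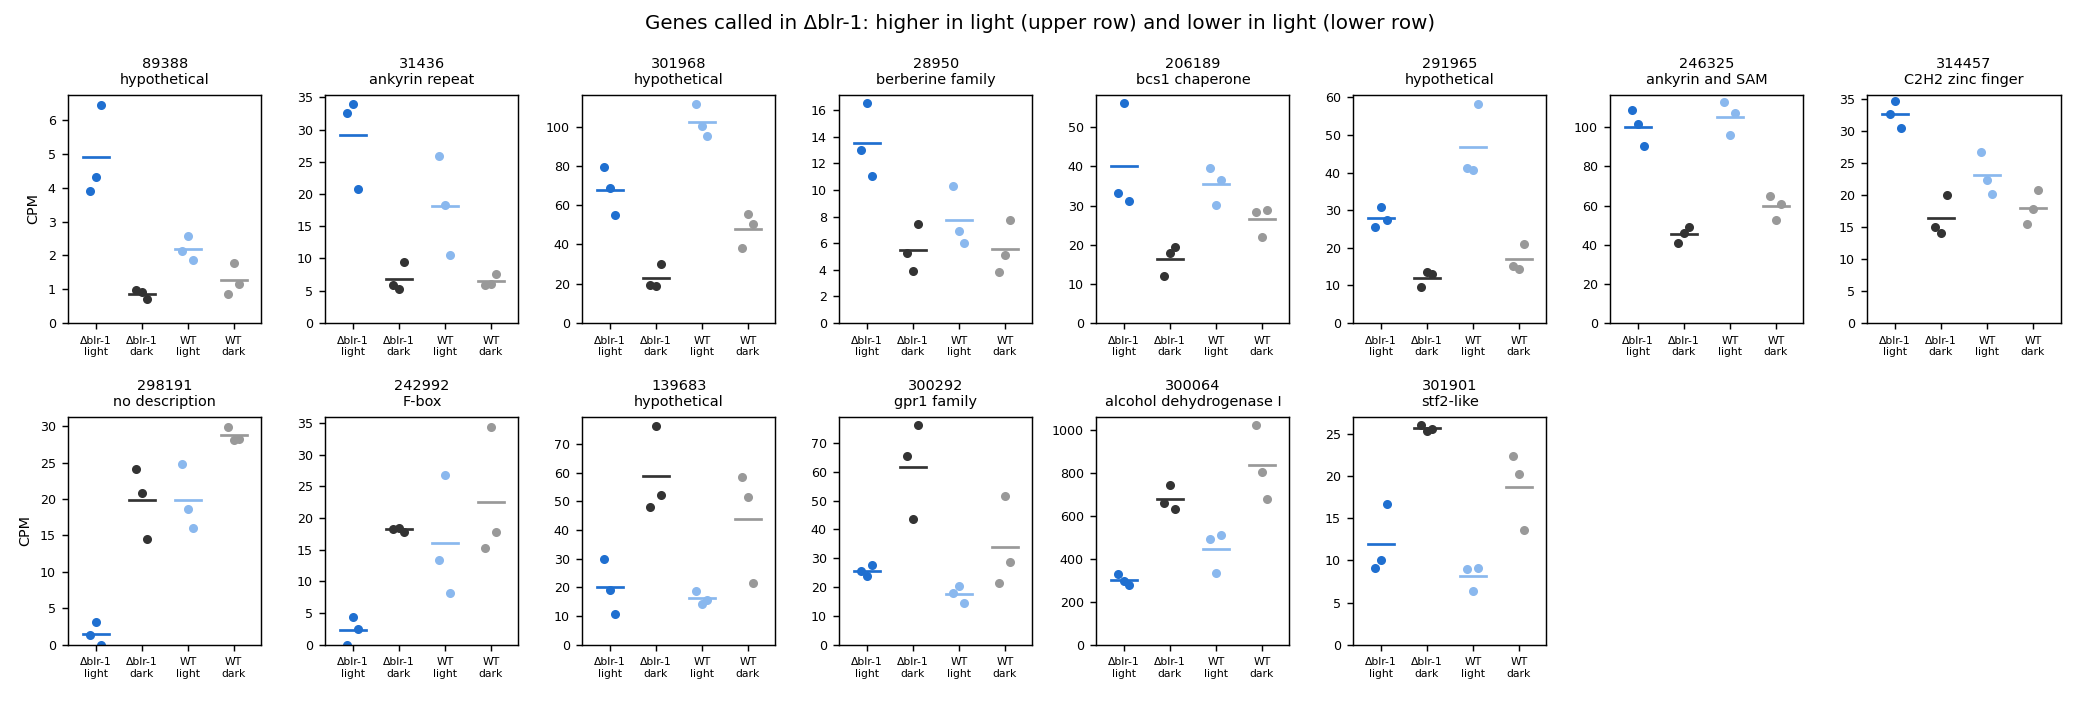
The panels give the level of each of the 14 called genes in CPM on a linear axis that starts at 0, with 1 point for each library and a line at the mean of 3 libraries in Δblr-1 light, Δblr-1 dark, WT light and WT dark. The upper row holds the 8 genes called higher and the lower row the 6 called lower in Δblr-1 light. In each panel the Δblr-1 light and dark points do not overlap.

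Among the genes called lower, alcohol dehydrogenase I (300064), which interconverts ethanol and acetaldehyde, had 330, 295 and 278 CPM in light, against 659, 744 and 634 CPM in darkness. The groups were far apart compared with the spread inside each, and the level was 2.27-fold lower in light (log2 fold change -1.18 ± 0.17, SE; edgeR adjusted p = 0.00385). Gene 300292 belongs to the gpr1 family, whose yeast members are linked to acetate transport. It had 25.4, 23.7 and 27.7 CPM in light, against 65.3, 43.6 and 76.0 CPM in darkness. The spread was larger in darkness than in light (log2 fold change -1.26 ± 0.27, SE; edgeR adjusted p = 0.0417).

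The stf2-like gene 301901 is related to a yeast protein that stabilises the inhibited form of the mitochondrial ATPase. It had 9.13, 10.1 and 16.7 CPM in light, against 26.1, 25.3 and 25.6 CPM in darkness. Light replicate 3 lay nearest to the dark libraries, which were almost equal (log2 fold change -1.09 ± 0.23, SE; edgeR adjusted p = 0.0332). Gene 139683, of no known function, had 30.0, 19.0 and 10.8 CPM in light, against 48.1, 76.3 and 52.2 CPM in darkness (log2 fold change -1.73 ± 0.37, SE; edgeR adjusted p = 0.0371).

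The remaining genes, 298191 and 242992, fell in light to levels that included a library with 0 counts. Gene 298191, without a description, had 1.3, 3.14 and 0 CPM in light, against 24.2, 20.9 and 14.5 CPM in darkness. Behind these levels stood 2, 64 and 0 counts in light, against 124, 322 and 82 in darkness (log2 fold change -3.19 ± 0.68, SE; edgeR adjusted p = 0.0385). The F-box gene 242992, of a family of substrate adaptors of SCF ubiquitin ligases, had 0, 4.36 and 2.5 CPM in light, against 18.3, 18.5 and 17.8 CPM in darkness. Its counts were 0, 89 and 12 in light, against 94, 285 and 101 in darkness (log2 fold change -2.42 ± 0.49, SE; edgeR adjusted p = 0.0286). In both genes 1 light library was at 0, and light replicate 2 held most of the light counts. Without light replicate 2 the log2 fold change was -5.87 for gene 298191 and -3.29 for gene 242992, and neither passed (edgeR adjusted p = 0.112 for both).

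The calls depended on single libraries. All 14 genes kept their sign when each of the 6 Δblr-1 libraries was left out in turn, but the number called was 1 without light replicate 2, 4 without dark replicate 1 and 6 without dark replicate 2. Gene 246325 was called in all 6 of these fits. Genes 301968, 291965 and 300064 were called in 5 of them, each lost without light replicate 2, and genes 298191 and 242992 were called in 0. Light and dark libraries of the same replicate number deviated together, and with the replicate number as a block 31 genes were called (0.327%), 17 higher and 14 lower. These included all 14. Of the 17 added genes, 285481 and 284689 rested on the counts of 1 dark library.

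**Figure D2:**
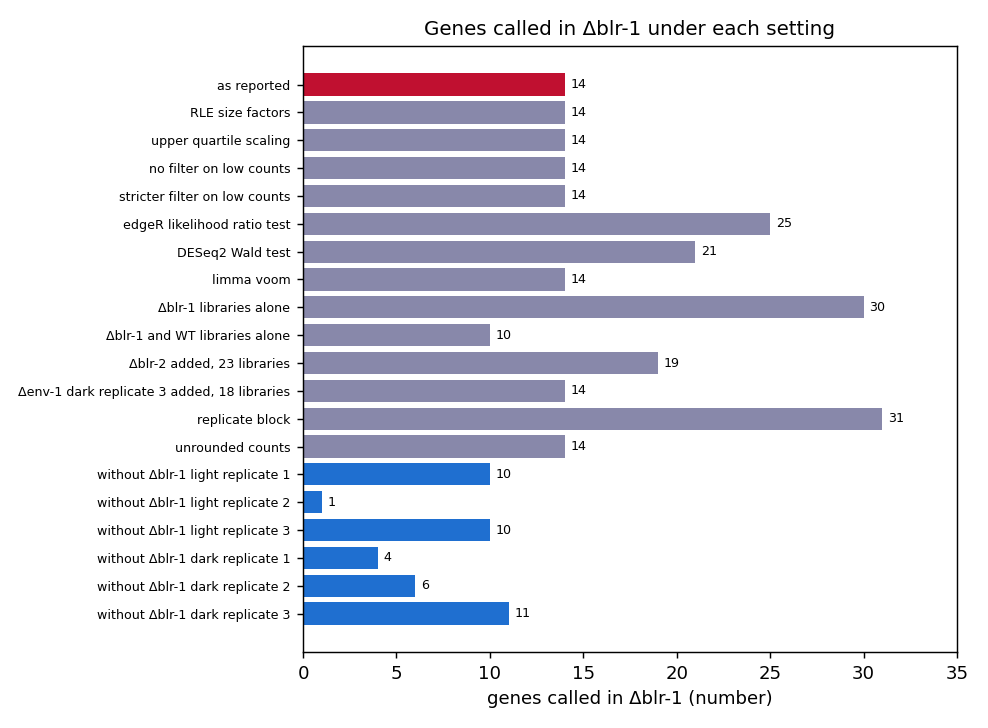
The bars give the number of genes called in Δblr-1 under each way of fitting or scaling, and without each Δblr-1 library, on a linear axis that starts at 0. The number stood at 14 in the fit reported here, reached 31 with the replicate block and was 1 without light replicate 2.

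Without the fold change minimum, 72 genes passed the adjusted p (0.761%), 29 higher (0.306%) and 43 lower in light (0.454%). Of these, 58 changed less than 2-fold, 21 of them higher and 37 lower, and 53 had no description. Light and dark libraries of all 72 did not overlap. The background of such a separation was 8.28% of tested genes with light higher and 9.48% with light lower. Mean levels in darkness ran between 0.863 and 969.8 CPM. The number of genes was 62 or fewer when 1 library was left out: 1 without light replicate 2, 26 without light replicate 3, and 16, 18 and 38 without dark replicates 1, 2 and 3. With the block it was 200 (2.11%).

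Of the 19 genes with a description in that set, several encode enzymes. Gene 134934, a flavin-binding monooxygenase, had 47.6, 58.0 and 54.4 CPM in light, against 29.8, 36.0 and 34.2 CPM in darkness. The 3 same-numbered pairs gave nearly equal ratios of 1.6, 1.61 and 1.59 (log2 fold change 0.70 ± 0.09, SE; edgeR adjusted p = 0.00364). Gene 298259, a phenol 2-monooxygenase, a class that hydroxylates phenols in aromatic breakdown, had 597, 570 and 491 CPM in light, against 852, 976 and 772 CPM in darkness. Its light libraries were all lower (log2 fold change -0.65 ± 0.11, SE; edgeR adjusted p = 0.0149). Gene 282746, a caspase-type peptidase, had 37.2, 40.6 and 31.1 CPM in light, against 17.3, 17.8 and 21.4 CPM in darkness (log2 fold change 0.97 ± 0.17, SE; edgeR adjusted p = 0.0158).

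Gene 297699 carries a CFEM domain, a cysteine-rich module of fungal surface and secreted proteins, and had 45.0, 53.8 and 46.5 CPM in light, against 19.1, 28.4 and 27.5 CPM in darkness. Its level was 1.94-fold higher (log2 fold change 0.96 ± 0.13, SE; edgeR adjusted p = 0.00364). The largest fall that passed outside the called genes was that of gene 257532, without a description, with 178, 163 and 204 CPM in light, against 292, 339 and 375 CPM in darkness (log2 fold change -0.89 ± 0.17, SE; edgeR adjusted p = 0.0218). Of the 72 genes, 70 could be placed in the RefSeq gene order of strain P1, where 5 pairs were direct neighbours. Besides 28950 and 31436, both members were higher in 246325 and 131158 and both lower in 156464 and 92302. In the pairs 237279 and 298191, and 151269 and 300055, the members had opposite signs.

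Set beside the other strains, the responses that remained in Δblr-1 mostly had the same sign. All 14 called genes had the same sign in WT, in Δenv-1 and in Δblr-2. In WT, 4 of the 8 genes called higher passed the adjusted p (background 3.2% of genes higher in WT) and 4 of the 6 called lower did (background 3.39%). In Δenv-1, fitted without dark replicate 3, 4 of the 8 passed (background 2.49%) and 0 of the 6 (background 1.82%), of which 3 had an unadjusted p under 0.05 and 2 passed with DESeq2 and 1 with limma voom. In Δblr-2, 6 of the 8 passed (background 20.8%) and 6 of the 6 (background 17.6%). Of the 72 genes, 67 had the same sign in WT (93.1%), 67 in Δenv-1 and 68 in Δblr-2. Over all genes tested the sign was the same in Δblr-1 and WT for 59.9%. The median size of the log2 fold change over all genes was 0.118 in Δblr-1 and 0.132 in WT.

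The share that passed in another strain was above the background of each. In WT, 44 of the 72 passed the adjusted p in the same direction (61.1%), 19 of 29 higher and 25 of 43 lower. In Δenv-1 22 passed (30.6%), and in Δblr-2 58 passed (80.6%). No library was shared between the strains, but they were fitted together with one estimate of the spread for each gene. Genes of small spread pass more readily in each strain, and the background over all genes does not allow for that. The genes were chosen by their Δblr-1 values, so the sizes in Δblr-1 and in the other strains were not compared over the set. The count of 44 became 1 without Δblr-1 light replicate 2, 19 without light replicate 3, 13, 16 and 28 without dark replicates 1, 2 and 3, and 26 without WT light replicate 1.

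Passing in all 3 other strains was found for 21 of the 72 genes, among them 301968, 291965, 246325, 282746, 297699, 134934, 298259 and cry-1 (86846). Gene 297699 had a log2 fold change of 0.96 in Δblr-1, against 1.53 in WT and 3.82 in Δblr-2. Gene 291965 had 1.23 in Δblr-1, against 1.49 in WT and 3.66 in Δblr-2. Passing in none of these 3 strains was found for 5 genes, of which 28950, 300708 and 257636 had the largest changes and 92302 and 297494 smaller ones. The study lists 28950 as induced in Δcry-1 too, a strain not fitted here. In Δenv-1 its log2 fold change was 0.98 (edgeR adjusted p = 0.0910).

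**Figure D3:**
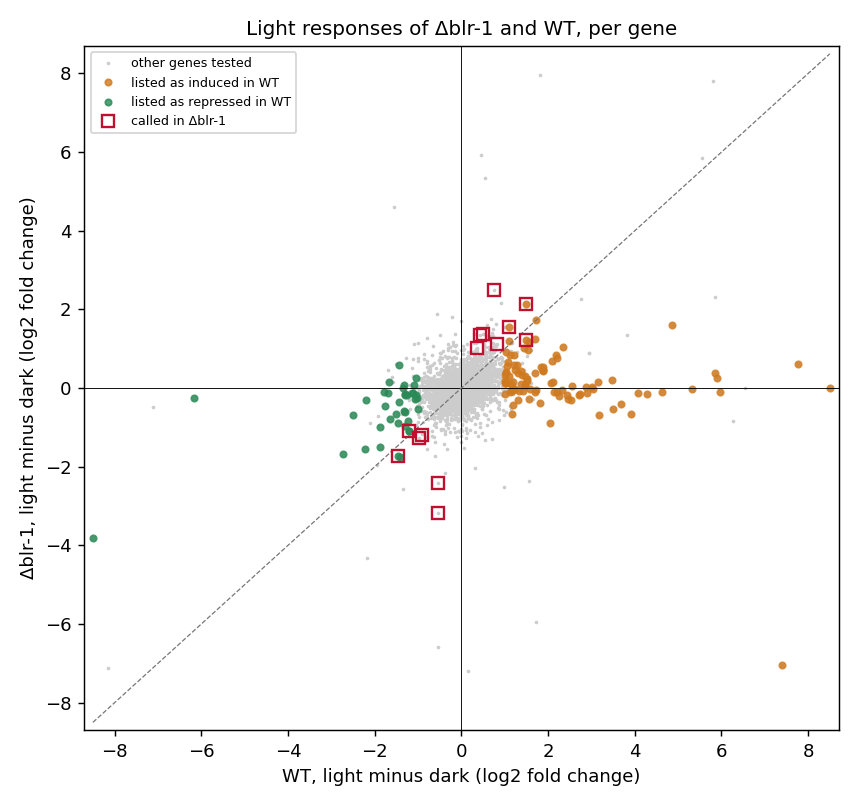
Each point is 1 of 9466 genes, with the log2 fold change of light over darkness in WT on the x axis and in Δblr-1 on the y axis, and values beyond 8.5 in size drawn at the edge. Orange points are the genes the study lists as induced in WT, green points those it lists as repressed, and red squares the 14 genes called in Δblr-1, while the dashed line marks an equal response. Most orange points lie far to the right and close to 0 in Δblr-1, and the red squares lie on the same side of 0 in both strains.

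The response to light was tested directly for a difference between Δblr-1 and WT. It differed in 131 genes (1.38%), with a log2 fold change below that of WT in 86 and above it in 45. In 6 of the 131 the response was larger in size in Δblr-1 than in WT. Among the 14 called genes 0 passed this test, with a lowest adjusted p of 0.207 (edgeR), while 6 had an unadjusted p under 0.05. DESeq2 and limma voom passed 0 of the 14 as well, and edgeR's likelihood ratio test passed 1. A missing difference is no sign of equal responses, since the standard errors of the differences were as large as 0.84.

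Among the 72 genes, 3 differed from WT. Gene 300708, without a description, had 14.3, 13.6 and 10.4 CPM in Δblr-1 light, against 5.85, 6.87 and 7.59 CPM in Δblr-1 darkness. In WT it stayed at 12.2 ± 0.541 CPM in light and 13 ± 2.32 CPM in darkness (SD, n = 3 each), so the strains differed in darkness and were close in light (difference of the log2 fold changes 0.99 ± 0.22, SE; edgeR adjusted p = 0.0302). Gene 168905, a hypothetical protein, moved in opposite directions. It had 22.2, 21.3 and 17.5 CPM in Δblr-1 light, against 29.4, 31.3 and 26.6 CPM in Δblr-1 darkness, while it averaged 39.4 ± 4.52 CPM in WT light and 21.3 ± 1.47 CPM in WT darkness. Its log2 fold change was -0.54 ± 0.11 (SE) in Δblr-1 and 0.88 ± 0.10 (SE) in WT, a difference of -1.42 (edgeR adjusted p = 1.72e-05). The last of the 3 was cry-1.

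Of the photoreceptor, clock and kinase genes fixed as a list, 1 of 6 passed the adjusted p in Δblr-1, beside 0.761% of all genes. This was cry-1 (86846), whose product the study describes as a photolyase. It had 17.6, 18.4 and 17.9 CPM in Δblr-1 light, against 11.5, 13.7 and 11.6 CPM in Δblr-1 darkness. The light libraries were nearly equal and all above the dark ones. The log2 fold change was 0.54 ± 0.11 (SE; edgeR adjusted p = 0.0405), a 1.45-fold higher level. In WT cry-1 averaged 39.5 ± 1.81 CPM in light and 11.1 ± 1.7 CPM in darkness (SD, n = 3 each), and the difference between the strains was -1.30 on the log2 scale (edgeR adjusted p = 0.000128). The rise of cry-1 in Δblr-1 lost the adjusted p threshold in each of the 6 fits that left out 1 Δblr-1 library.

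The ENVOY gene env-1 (150699) had 1.3, 1.86 and 2.29 CPM in Δblr-1 light, against 1.36, 1.69 and 1.06 CPM in Δblr-1 darkness. These values overlapped and lay near the floor of the shallower libraries (log2 fold change 0.37 ± 0.20, SE; edgeR adjusted p = 0.718). In WT env-1 averaged 107 ± 1.44 CPM in light and 1.85 ± 0.176 CPM in darkness, so no Δblr-1 light library came near the WT light libraries. The difference between the strains was -5.48 on the log2 scale (edgeR adjusted p = 1.26e-09). The cryptochrome gene cry-DASH (285589) had 0.652, 0.490 and 1.25 CPM in Δblr-1 light, against 0.585, 0.389 and 0.353 CPM in Δblr-1 darkness. At this depth neither its response nor its difference from WT, -1.39 on the log2 scale, could be told from 0 (edgeR adjusted p = 0.752 and 0.661).

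The photolyase gene phr-1 (302457), whose product repairs ultraviolet damage of DNA with the energy of light, had 372, 384 and 311 CPM in Δblr-1 light, against 376, 389 and 355 CPM in Δblr-1 darkness. Light and dark overlapped, and the response differed from that of WT by -1.40 on the log2 scale. The clock gene frq (131340) had 54.8, 46.3 and 48.6 CPM in Δblr-1 light, against 61.2, 54.4 and 53.1 CPM in Δblr-1 darkness. Its log2 fold change of -0.20 did not pass (edgeR adjusted p = 0.301) and differed from WT by -2.45. The stress-activated kinase gene tmk-3 (301235) had 171, 180 and 176 CPM in Δblr-1 light, against 174, 192 and 186 CPM in Δblr-1 darkness. It differed from WT by -1.48, and the tests of phr-1, frq and tmk-3 against WT all passed the adjusted p.

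Blue-light reporter genes are blu-1 (300570), the counterpart of a Neurospora gene repressed by glucose, and bld-2 (301399), a short-chain dehydrogenase. Gene blu-1 had 7.82, 4.17 and 5.21 CPM in Δblr-1 light, against 2.92, 2.79 and 3.88 CPM in Δblr-1 darkness. Every light library lay above every dark library, but the log2 fold change of 0.61 ± 0.30 (SE) did not pass (edgeR adjusted p = 0.448). In WT blu-1 averaged 619 ± 131 CPM in light and 2.79 ± 0.886 CPM in darkness, a difference of -7.14 between the strains. Gene bld-2 had 3158, 3201 and 2522 CPM in Δblr-1 light, against 3333, 3487 and 2824 CPM in Δblr-1 darkness. These groups overlapped (log2 fold change -0.12; edgeR adjusted p = 0.88), whereas the WT log2 fold change was -1.69.

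**Figure D4:**
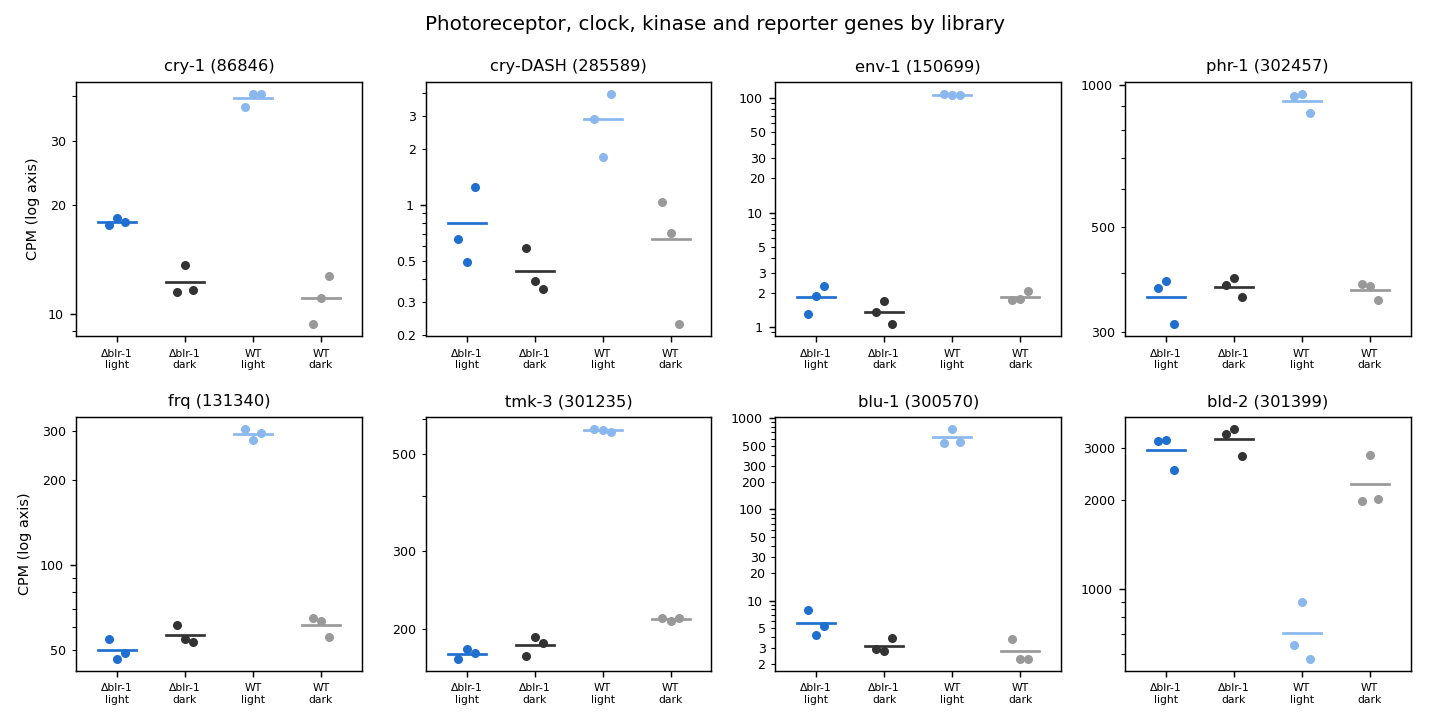
The panels give cry-1, cry-DASH, env-1, phr-1, frq, tmk-3, blu-1 and bld-2 in CPM on a log axis, with 1 point for each library and a line at the mean of 3 libraries in Δblr-1 light, Δblr-1 dark, WT light and WT dark. The WT light points stand apart from the WT dark points in every panel, while the Δblr-1 light points do not overlap the Δblr-1 dark points only for cry-1 and blu-1. The Δblr-1 light mean of blu-1 was 5.73 CPM, against 619 CPM in WT light.

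The genes that the study lists as light-responsive in WT were chosen on WT libraries. These do not enter the fold changes compared in Δblr-1, but they share the filter, the scaling and the estimate of the spread in its test. Of the 97 listed as induced, 96 were tested in Δblr-1, where 57 had a positive and 38 a negative log2 fold change. Their median was 0.13 (quartiles -0.10 and 0.48), beside a median of -0.0044 over all genes and of 1.69 for the same genes in WT. In Δblr-1, 5 of the 96 passed the adjusted p (5.21%) and all 5 were higher (background 0.306%): 31436, 301968 and 291965, which were called, and 297699 and cry-1. Without overlap of the libraries 19 were higher (19.8%, background 8.28%) and 5 lower (5.21%, background 9.48%). The response differed from WT in 52 of the 96 genes. As a share of the WT log2 fold change, the median in Δblr-1 was 6.57%, and 14 genes were over 50%. Since the list was chosen for large changes in these WT libraries, the WT values, these shares and the count that differed are a description only, as they are for the repressed genes. The last of the 96, gene 206334 with a DUF1295 domain, had 0 counts in each of the 6 Δblr-1 libraries and in WT darkness, against 280, 271 and 260 CPM in WT light. A count of 0 in Δblr-1 allows up to 0.147 CPM in the deepest library, and the test of this gene against WT was void.

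Of the 38 genes listed as repressed in WT, 33 had a negative log2 fold change in Δblr-1 (86.8%, against 51.1% of all genes), with a median of -0.40 (quartiles -0.95 and -0.13), beside -1.38 for the same genes in WT. Of these, 2 passed the adjusted p (5.26%, background 0.454% lower), the called genes 139683 and 301901. Light libraries lay below the dark ones without overlap in 13 genes (34.2%, background 9.48%) and above them in 0. The response differed from WT in 9 of the 38, and the median share of the WT log2 fold change was 26.1%, with 12 genes over 50%. The largest fall in this list, that of the sec62 gene 33428 for protein translocation into the endoplasmic reticulum, did not pass, with 8.47, 0 and 0 CPM in light, against 9.74, 6.09 and 15.2 CPM in darkness (edgeR adjusted p = 0.459). Whether the residual values of induced and repressed genes differ was not tested.

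**Figure D5:**
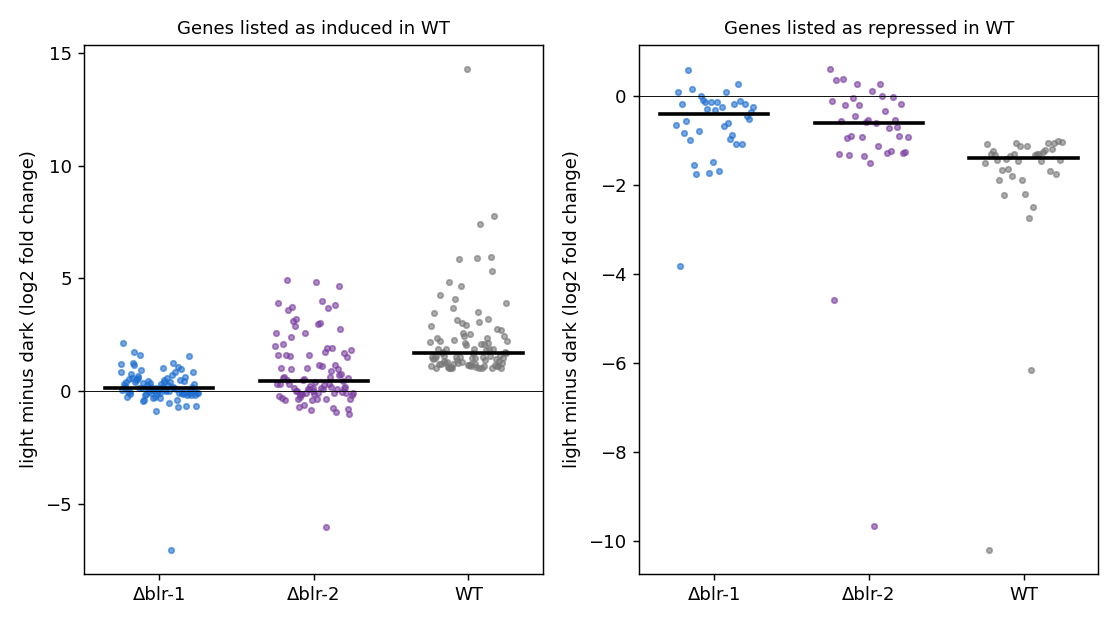
Each point is the log2 fold change of light over darkness of 1 gene that the study lists as induced (96 tested) or repressed (38) in WT, given for Δblr-1, Δblr-2 and WT with a line at the median. The median of the induced genes was 0.13 in Δblr-1, against 1.69 in WT, and that of the repressed genes -0.40 in Δblr-1, against -1.38 in WT.

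The functional groups were drawn by keyword from the study's descriptions and left out genes that the study lists for Δblr-1 alone, among them the called ankyrin gene 246325 and the called C2H2 gene 314457. Most held no gene that passed in Δblr-1. With 0.761% of all genes passing, counts of 0 or 1 in such short lists are near that background. The descriptions came mostly from the study's lists of light-responsive genes, and 53 of the 72 genes that passed had none. The groups therefore hold a part of each class, and their counts do not describe the whole class. Of 15 DNA repair and replication genes only cry-1 passed, and their median log2 fold change was 0.02. An unadjusted p under 0.05 (edgeR) was found for 5 of them, 2 higher and 3 lower, beside 1126 of all 9466 genes. Of 15 transcription regulators 0 passed, although 3 had an unadjusted p under 0.05. DESeq2 and limma voom passed 0 of them and the likelihood ratio test 1. The response of 7 differed from WT, beside 1.38% of all genes, in a list whose median WT log2 fold change was 1.70. The transcription regulator 44933 had 7.17, 5.93 and 6.25 CPM in Δblr-1 light, against 3.51, 3.69 and 3.71 CPM in Δblr-1 darkness. Its groups did not overlap, with a log2 fold change of 0.76 in Δblr-1 and 2.20 in WT. It passed in Δblr-1 with the replicate block (edgeR adjusted p = 0.0443) and not in the fit reported here. Of 13 transporters 0 passed, 4 had an unadjusted p under 0.05 and 0 passed with DESeq2 or limma voom, with a median of -0.31.

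Of 31 oxidoreductases tested, 3 passed, the monooxygenase 134934 higher, and alcohol dehydrogenase I and phenol 2-monooxygenase 298259 lower, and the median was -0.15. The keywords did not reach the called berberine family gene 28950, and gene 257822 was among those left out. Of 5 ankyrin repeat genes in the list 4 had a positive value and 31436 was called. Outside the list, 246325 was called and 322621 was not. Of 7 secondary metabolism genes and of 4 sulfur and serine genes 0 passed, with DESeq2 and limma voom as well, and of these only 1, a sulfur or serine gene, had an unadjusted p under 0.05.

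The 6 conidiation genes all had negative values in Δblr-1, with a median of -0.42, and 0 passed by edgeR, DESeq2 or limma voom, with 0 at an unadjusted p under 0.05. Their summed level was 30.6, 20.1 and 44.0 CPM in Δblr-1 light, against 37.6, 22.6 and 56.6 CPM in Δblr-1 darkness. Light was lower than darkness in each same-numbered pair, and the spread between replicates was wider than the difference inside a pair. In WT the sum was 393, 39.6 and 547 CPM in light, against 310, 69.1 and 586 CPM in darkness, so replicate 2 stood lowest in every group. The part of this replicate difference in the comparisons above was not tested.

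The study lists 27 genes as responsive to light in Δblr-1, a list made on these same libraries, so its directions are no independent evidence. Of the 27, 13 were called here and 14 were not, with adjusted p between 0.0633 and 0.405 (edgeR). The quasi-likelihood test used here is not the test named in the study's methods. On the same counts, edgeR's likelihood ratio test passed 14 of the 20 genes listed as induced and 6 of the 7 listed as repressed at the adjusted p, and DESeq2 passed 12 and 6. With the replicate block 22 were called. The lipoxygenase gene 33350, of a family that oxygenates polyunsaturated fatty acids, had 450, 395 and 237 CPM in light, against 155, 130 and 179 CPM in darkness. It was higher in every light library, and passed with the block and not without it (log2 fold change 1.21; edgeR adjusted p = 0.0895, and 0.0177 with the block). Gene 322924, of no known function, had 15.6, 17.4 and 16.7 CPM in light, against 7.79, 7.58 and 7.59 CPM in darkness. These groups were tight and 1.14 apart on the log2 scale, yet the edgeR adjusted p was 0.123 in the fit reported here and 0.00421 with the block. Without the block the gene was also called by the likelihood ratio test, by DESeq2 and with the Δblr-1 libraries alone.

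The glutaryl dehydrogenase gene 257822 gave the widest separation on that list. It had 0, 14 and 0 counts in light, against 140, 438 and 225 counts in darkness, which was 0, 0.686 and 0 CPM against 27.3, 28.4 and 39.7 CPM. The light libraries held at most 14 counts, and the edgeR adjusted p was 0.233 in the fit reported here and 2.01e-05 with the block. Without the block the gene was also called by the likelihood ratio test and with the Δblr-1 libraries alone. In WT replicate 2 was the highest in both conditions, at 3.53, 72.6 and 2.31 CPM in light, against 2.60, 19.0 and 0 CPM in darkness. Among the 5 listed genes that were not called even with the block (93713, 207541, 255645, 256544 and 256835), the last 3 rested on few counts. Gene 256544 had 0, 105 and 9 counts in light, against 0 in every dark library, and gene 256835 had 6, 62 and 0 counts in light, against 1, 0 and 1 in darkness.

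The mutants of the 2 proteins of the complex were far apart in these data. In a fit of 23 libraries and 9605 genes, 115 genes passed the adjusted p in Δblr-1 and 3684 in Δblr-2, and 19 and 708 were called. The median size of the log2 fold change was 0.119 in Δblr-1 and 0.254 in Δblr-2. The response differed between the mutants in 1504 genes (15.7%), with the value in Δblr-1 above that in Δblr-2 in 527 and below it in 977. Gene 28704 showed a difference of -8.42 and had 92.9, 45.2 and 45.0 CPM in Δblr-2 light, against 0.800, 0.267 and 0.226 CPM in Δblr-2 darkness. In Δblr-1 it had 0, 0.294 and 0.417 CPM in light, against 0.390, 0.389 and 0.882 CPM in darkness. Gene 298191 showed one of 7.48, since Δblr-2 light libraries were all at 0, against 31.6, 17.4 and 17.6 CPM in Δblr-2 darkness. Reporter blu-1 had a log2 fold change of 0.61 in Δblr-1, against 4.65 in Δblr-2, and cry-1 0.54, against 0.99. Gene env-1 showed no rise in Δblr-2, with 0.433, 1.06 and 0.710 CPM in Δblr-2 light, against 0.800, 1.34 and 1.27 CPM in Δblr-2 darkness. These levels lay near the floor of detection, while the mean in WT light was 107 CPM. The study's paper reports no analysis of Δblr-2, so these values have no counterpart in it. The reads of blr-2 itself were not analysed here, and the genotype of the libraries labelled Δblr-2 was not checked.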

How the data were processed

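The authors checked the reads with FastQC and quantified them with kallisto on predicted transcripts. The deposited values are its estimated counts, not normalized. Of these values 8.33% were not whole (tolerance 1e-06), and all were rounded. The 12 columns whose names could not be matched to a sample were not used. Columns were assigned to samples and groups by the labels.

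Counts were analysed in R 4.3.3 with edgeR 4.0.16. The fit used 17 libraries (Δblr-1 6, WT 6, Δenv-1 5), which share one estimate of the spread. Dark replicate 3 of Δenv-1 was left out, as the description of the series states for the authors' own analysis. Comparisons with Δblr-2 used 23 libraries. Genes were kept by filterByExpr with a minimum count of 10, libraries were scaled by TMM, and each contrast was tested with the quasi-likelihood F test, adjusted by the Benjamini-Hochberg method over all 9466 genes (9605 with Δblr-2). Differences between strains were tested as interactions at an adjusted p of at most 0.05. The scripts were tested on simulated data. Libraries within a group differed by more than sampling noise, with a chi-square of 3.11 to 16.1 per degree of freedom, and p-values measure the spread between these samples.

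Same-numbered light and dark libraries were taken to pair, since their deviations from the group means correlated at 0.269, 0.337 and 0.18 in Δblr-1 (7789 genes) and at 0.287, 0.628 and 0.479 in WT (7893 genes). The highest value for different numbers was 0.0133 in Δblr-1 and 0.291 in WT. The study's methods mention no block, so the fit without it is the one reported, and the fit with it is an alternative. The p-values of the reported fit therefore leave this pairing out, and 14 genes were called without the block and 31 with it.

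Named genes were all called genes, up to 10 further genes per direction that passed the adjusted p without overlap, the study's Δblr-1 list, 8 light-related genes, the 5 largest differences from WT in each direction and the 5 from Δblr-2, and the called or most changed members of functional lists. Other genes named in the text were chosen after their values were seen. The members and lists were chosen with earlier results of these data known. Gene descriptions come from the study's tables. For gene order, 10686 of 11863 Ids matched RefSeq assembly ASM2064779v1 of strain P1, and its coordinates were not used. A search for promoter and protein motifs was not run. Alternatives were RLE and upper quartile scaling, no or a stricter filter (minimum count 30), the likelihood ratio test, DESeq2 1.42.0, limma 3.58.1 voom, other sets of libraries, the replicate block, unrounded counts, other call thresholds and fits that leave out 1 replicate. The count of genes that also passed in WT was put through them after the data were seen.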

Additional observations from a re-analysis of the deposited data

Results flagged for a closer look

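The direct test found 131 genes whose response to light differed between Δblr-1 and WT, and 1504 whose response differed between Δblr-1 and Δblr-2. The values below are differences of log2 fold changes, Δblr-1 minus the other strain, and all passed the adjusted p of edgeR's quasi-likelihood test.

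Among the photoreceptor, clock, kinase and reporter genes, the difference from WT was -5.48 for env-1 (150699), -1.30 for cry-1 (86846), -1.40 for phr-1 (302457), -2.45 for frq (131340), -1.48 for tmk-3 (301235), -7.14 for blu-1 (300570) and 1.57 for bld-2 (301399).

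The largest other differences below 0 were -5.36 for gene 298329 (a FAD-binding protein), -4.73 for 153516 (a cyclopropane-fatty-acyl-phospholipid synthase) and -4.57 for 305868 (an ankyrin repeat protein). The largest above 0 were 5.91 for 184804 (a terpenoid synthase), 2.20 for 88880, 1.82 for 48461 and 1.69 for 87055 (a transcriptional regulator). The size for 184804 depends on the prior count, since its 3 WT light libraries were at 0. Genes that passed in Δblr-1 itself added 0.99 for 300708 and -1.42 for 168905.

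Against Δblr-2 the largest differences were -11.8 for gene 256410, -8.42 for 28704, -8.23 for 40549, 7.95 for 179280 and 7.48 for 298191. Several of these rest on a group at 0 counts, so their sizes depend on the prior count.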

How the results depend on the processing

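The number of genes called in Δblr-1 (14) changed with the fit: 25 with the likelihood ratio test, 30 with the Δblr-1 libraries alone, 31 with the replicate block, 72 with no fold change minimum, and 0 in a test against a log2 fold change of 1 (edgeR glmTreat, where 27 genes had an unadjusted p under 0.05). Leaving out 1 replicate gave 1 to 11. Genes called higher (8) were 17 with the likelihood ratio test, 13 with DESeq2, 19 with Δblr-1 alone, 13 with Δblr-2 added, 17 with the block and 1 to 10 with 1 replicate left out. Genes called lower (6) were 11 with Δblr-1 alone, 2 with Δblr-1 and WT alone, 14 with the block and 0 to 2 with 1 replicate left out. Genes past the adjusted p (72) were 164 with the likelihood ratio test, 152 with DESeq2, 148 with Δblr-1 alone, 33 with Δblr-1 and WT alone, 115 with Δblr-2 added, 200 with the block and 1 to 62 with 1 replicate left out. Those that also passed in WT in the same direction (44) were 83 with the likelihood ratio test, 78 with DESeq2, 23 with Δblr-1 and WT alone, 99 with the block and 1 to 45 with 1 replicate left out, which was 46.1% to 69.7% of the genes that passed over the settings that kept all replicates. A left-out library means fewer samples; otherwise the cause was not tested. The other 132 of 178 alternative values of counts and list medians stayed within 1.5 times the count or 1 SD, among them the differences from WT (94 to 170 genes where all replicates were kept) and from Δblr-2.

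For 67 named genes, 1056 of 1247 alternative values kept direction and side of the threshold, 146 fell short of it, 38 newly passed and 7 reversed, none of these past the threshold. These occurred with 1 replicate left out, where log2 fold changes ran between -0.13 and 0.017 for gene 302457, -0.087 and 0.10 for gene 298329, -0.13 and 0.099 for gene 153516, -0.33 and 0.018 for gene 87055, and -0.58 and 0.043 for gene 184804.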

Other observations

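Gene 236632 alone took 1.91% of the counts of Δblr-1 light replicate 2. With the replicate block, 8 genes outside the study's Δblr-1 list were called besides the 14: 80087, 45640, 260119, 285481, 284689, 299314, 88424 and 179280. Of these, 285481 held 64 counts and 284689 60 counts in dark replicate 2 and 0 in each of the other Δblr-1 libraries. The pcc1 gene 255645 had 3, 6 and 7 counts in Δblr-1 light, against 0 in every dark library.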
